A study of Brassica napus with 6 samples.

Results

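The start of chromosome C2 of oilseed rape (Brassica napus) held 316 gene models up to position 2229791, beside 6491 on the rest of that chromosome and 65535 in the whole deposited count table. The segment was chosen by its low read counts in these same libraries, so its low level is described here and not tested. It was set beside the first 316 gene models of chromosome A2, which end at position 1639606. RNA was sequenced from HZ62, a hybrid with the genotype label WT, in siliques of 3 to 5 cm (the pods that enclose the seeds), in flower buds under 2 mm and in seedlings of 2 weeks, with 2 libraries per tissue. Growth conditions were the same for all, with 16 h of light at 22 °C alternating with 8 h of darkness at 18 °C. The parents of the hybrid were not analysed here. No file pairs the identifiers with gene names: 0 of 95143 matched the RefSeq table of the Da-Ae assembly. Genes are therefore given by identifier and position, without a function, and the tissue labels could not be set against marker genes. Positions count from 1 and follow the count table, for which the sources used here name no genome build.

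Oilseed rape is an allotetraploid: its A chromosomes come from a relative of Brassica rapa and its C chromosomes from a relative of Brassica oleracea. Chromosomes A2 and C2 are homoeologous, which means that they descend from corresponding chromosomes of the progenitors and carry many related genes. Homoeologous chromosomes of this species are known to exchange segments, and homoeologous copies are known to differ in expression between tissues. The DNA of HZ62 was not analysed here, and no gene of the C2 segment was paired with a copy on A2.

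The count table stops within chromosome C3: it holds 65535 genes of 13 chromosomes, some unplaced, while the normalized table lists 80932 genes. Totals of the count table are thus partial. The libraries held between 2538852 reads in seedling replicate 2 and 15448095 in seedling replicate 1 in the count table, while silique and flower bud libraries held 6689132 to 8111828. Whether both libraries of a tissue came from different plants is not stated in the labels. The p-values thus measure only the spread between the samples, part or all of which may be technical. Levels are given as CPM, the usual scale of counts relative to the reads of a library in the count table, after trimmed-mean scaling, so that 1 CPM equalled 1.99 reads in seedling replicate 2 and 6.89 to 14.2 reads in the other libraries. Most counts were even numbers: 92.5% of the non-zero counts of the C2 segment, 86.7% of those of the A2 segment and 85.9% over all listed genes. Reads of a gene thus came mostly in pairs, and the independent observations behind a count may be fewer than the count itself. Counting intervals and limits are computed on single reads, so they are then too narrow, and a bound on a fold change against 0 reads would be lower by a factor of 2 where each pair was counted as 2 reads. The sources used here do not say how reads were counted that match a gene and a near-identical copy, and levels of genes with such copies are uncertain.

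The C2 segment was largely unread. Of its 316 genes, 155 (49.1%) had any read in the 6 libraries together, against 248 (78.5%) in the A2 segment and 71.5% of all listed genes. A total of at least 60 reads was reached by 56 genes (17.7%) of the C2 segment and 176 genes (55.7%) of the A2 segment, against 49.5% of all listed genes. On the rest of each chromosome the share was 37.9% of 6491 genes on C2 and 48.9% of 4225 genes on A2. No read at all was found for 161 genes of the C2 segment and 68 of the A2 segment. Zero reads in the 6 libraries together still allow a level of up to 0.0601 CPM, from a limit of 3 counts that covers counting error only.

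The genes that were read on C2 were also read thinly. Among genes with at least 60 reads, the median level over the tissues was 4.10 CPM in the C2 segment (quartiles 2.40 and 7.51) and 18.4 CPM in the A2 segment (5.77 and 36.3), against 10.3 CPM on the rest of C2 and 12.5 CPM on the rest of A2. Per kb of gene span, these medians were 1.48 CPM in the C2 segment and 4.87 CPM in the A2 segment. A mean level of at least 10 CPM was reached by 10 genes of the C2 segment and by 108 of the A2 segment, and at least 50 CPM by 2 and by 29 genes. The 10 most-read genes took 57.0% of the reads of the C2 segment and 36.8% of those of the A2 segment. These shares are not like for like, since 56 genes reached 60 reads on C2 and 176 on A2. The most-read gene alone took 14.9% and 11.3%. Between 1 and 59 reads were counted for 99 genes of the C2 segment, with a median of 8 reads. Of these 99, 27 had reads in flower bud alone, 9 in silique alone and 8 in seedling alone. Such thin counts are not compared between tissues, since the depth of the libraries differed.

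**Figure D1:**
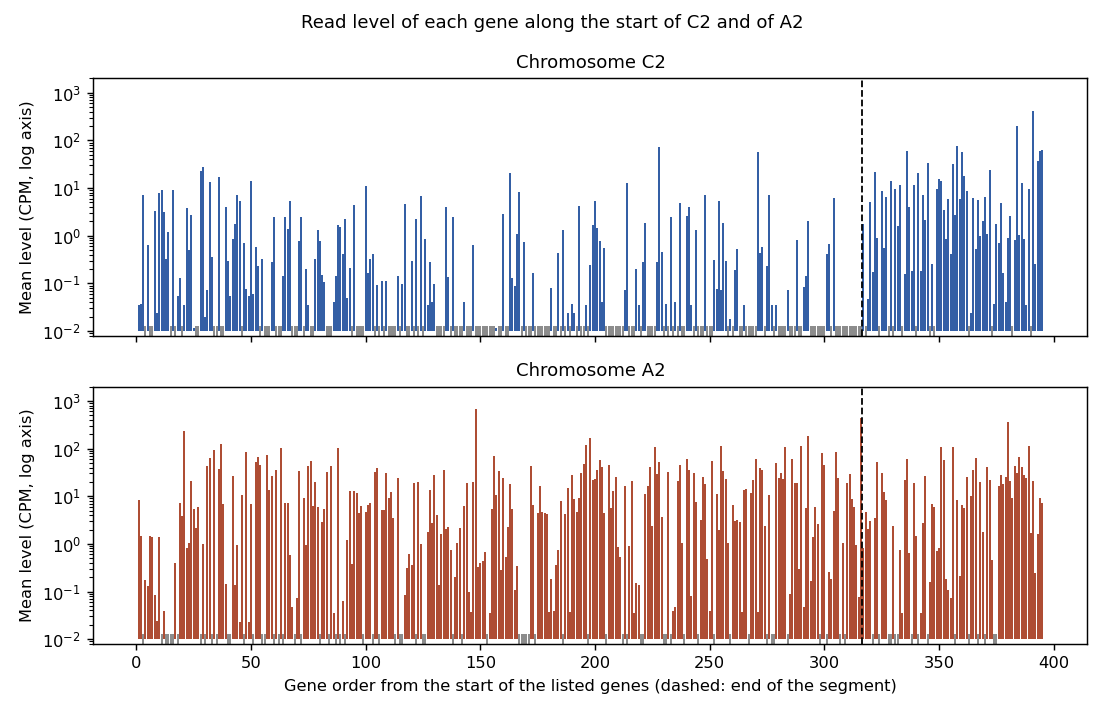
Mean level over the 3 tissues (CPM, log axis) of each gene by its order along C2 (top) and A2 (bottom); bars start at 0.01 CPM, grey ticks mark genes without a read, and the dashed line marks the end of each 316-gene segment. Bars are sparse and short over the C2 segment, where 161 genes had no read, and denser beyond the dashed line, while A2 shows no such step.

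Low counts were found in every stretch of the C2 segment. In 4 successive blocks of 79 genes from the chromosome start, 24, 10, 13 and 9 genes had at least 60 reads on C2, against 39, 42, 45 and 50 on A2. The summed level of the blocks was 185, 46.4, 148 and 98.8 CPM on C2, against 1406, 1383, 1254 and 2045 CPM on A2. The next 79 genes of C2, outside the segment, had 43 genes with at least 60 reads and 1340.2 CPM, and those of A2 had 50 genes and 1650 CPM. The longest run of neighbouring genes without a read was 12 genes in the C2 segment, which is also its last stretch before the edge, and 5 genes in the A2 segment. On the rest of each chromosome, which holds far more genes, it was 19 genes on C2 and 10 genes on A2.

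The 5 genes just inside the edge, ZS11C02G003120 to ZS11C02G003160 (2222473 to 2229791), had 0 reads in every library. The first gene outside, ZS11C02G003170 (2230917 to 2237488, plus strand), had 90 reads in all. The next 4, ZS11C02G003180 to ZS11C02G003210, had 0, 4, 232 and 10 reads, so that genes without or with few reads also occur outside.

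No other chromosome start in the count table was as little read. The table reached 13 chromosomes, and in the first 316 genes of the 12 others between 148 genes (A7) and 203 genes (A1) had at least 60 reads, against 56 on C2. The mean level per listed gene was 1.51 CPM for the C2 segment and 9.69 to 28.8 CPM for the 12 others. The A2 segment lay within that range, with 19.3 CPM per listed gene, and 5 of the 11 remaining starts lay above it. The median level of its read genes, 18.4 CPM, lay between the lowest and the highest of the other starts, 11.02 and 19.9 CPM.

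**Figure D2:**
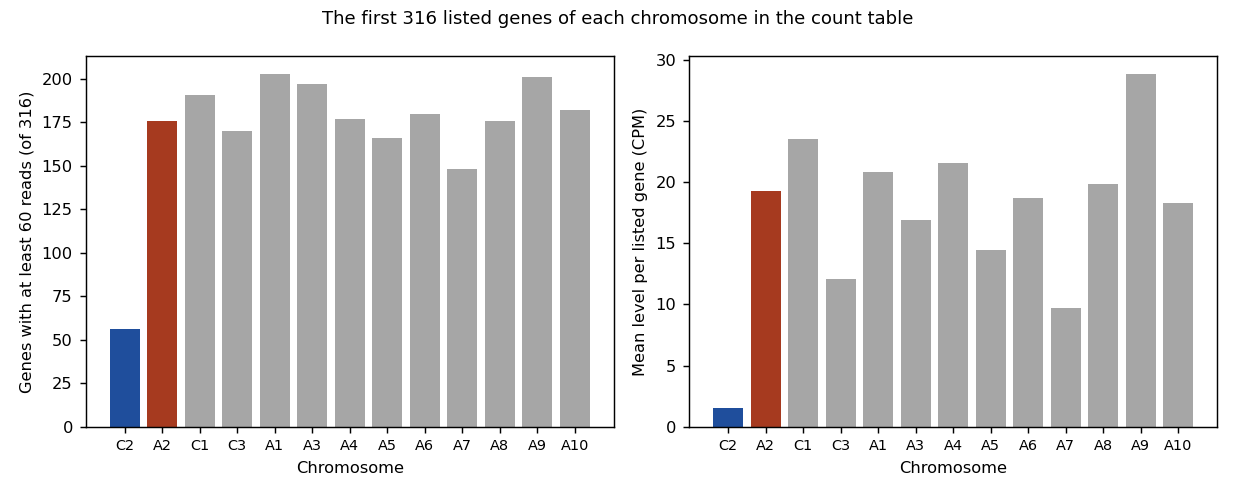
Number of genes with at least 60 reads over the 6 libraries (left) and mean level per listed gene in CPM (right) for the first 316 listed genes of each of the 13 chromosomes, with C2 in blue, A2 in red and the others in grey. C2 has 56 such genes and 1.51 CPM per gene, and the 12 others have 148 to 203 such genes and 9.69 to 28.8 CPM.

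Gene models of the segments were similar in size but not in spacing. The median gene span was 1972 bases in the C2 segment and 2160 in the A2 segment, against 1702 on the rest of C2 and 1973 on the rest of A2. The C2 segment held a gene per 7027 bases and the A2 segment a gene per 5189 bases, against 9704 and 7520 bases on the rest of each chromosome. On the plus strand lay 168 of the 316 genes of the C2 segment and 161 of those of the A2 segment. Another gene model overlapped 53 genes of the C2 segment and 79 of the A2 segment. The sources used here do not say whether counting used the strand, and the levels of such genes are uncertain.

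Short genes were read less often in every part of these chromosomes, and the C2 segment was lowest in each class of gene span. Among genes under 1 kb, 2 of 77 (2.6%) reached 60 reads in the C2 segment, against 11 of 57 (19.3%) in the A2 segment and 10.3% on the rest of C2. Among genes of 1 to 3 kb the share was 18.2% of 159 genes in the C2 segment, against 53.9% of 154 in the A2 segment and 44.5% on the rest of C2. Among genes of 3 kb or more it was 31.3% of 80 genes in the C2 segment, against 78.1% of 105 in the A2 segment and 59.7% on the rest of C2.

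Within every library the C2 segment gave far fewer reads than the A2 segment. For each 100 reads of the A2 segment, the C2 segment had 6.83 and 7.02 reads in silique, 8.52 and 8.68 in flower bud, and 8.32 and 7.95 in seedling. The tissues did not overlap in this ratio, which lay lowest in silique. It averaged 6.93 ± 0.132 in silique, 8.60 ± 0.114 in flower bud and 8.13 ± 0.255 in seedling (SD, n = 2 each). The difference was -1.67 between silique and flower bud, -1.21 between silique and seedling, and 0.466 between flower bud and seedling, each larger than the gap between the replicates of either tissue. Without the most-read gene of each segment the differences were -2.01, -0.601 and 1.41. The value of -0.601 is smaller than the gap between the seedling replicates, which then had 7.61 and 6.87 C2 reads per 100 A2 reads. Without seedling replicate 2, flower bud minus seedling was 0.285, and without seedling replicate 1 it was 0.646. A two-sided exact permutation test of 2 libraries against 2 cannot go below p = 0.333, which it gave for all 3 pairs (0.375 after Benjamini-Hochberg adjustment over the 9 tests of segment ratios and shares). In bulk tissue, fewer cells of a type and less RNA per cell cannot be told apart.

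As a share of the reads of the count table, which covers only some of the chromosomes, the C2 segment took 0.0451% (Wilson 95% interval 0.0436 to 0.0466) and 0.0460% (0.0444 to 0.0477) in silique. In flower bud it took 0.0531% (0.0515 to 0.0547) and 0.0528% (0.0513 to 0.0545). Seedling libraries had 0.0472% (0.0462 to 0.0483) and 0.0425% (0.0400 to 0.0451). Flower bud was highest in share, though not after trimmed-mean scaling, and did not overlap the other tissues, while the silique and seedling values overlapped. The A2 segment took 0.660% (0.654 to 0.665) and 0.656% (0.6496 to 0.662) in silique. Flower bud libraries had 0.623% (0.618 to 0.629) and 0.609% (0.603 to 0.614). Seedling libraries had 0.568% (0.564 to 0.572) and 0.534% (0.525 to 0.543). Silique was highest in share, though not after trimmed-mean scaling, and the tissues did not overlap. All intervals cover counting error only. Over the larger totals recovered from the normalized table, the shares per library were 0.0271% to 0.0342% for the C2 segment and 0.341% to 0.426% for the A2 segment. The exact permutation p was 0.333 for the pairs without overlap and 1.0 for the share of the C2 segment between silique and seedling.

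These orders among tissues depended on the scaling, whereas the ratio of the segments within a library does not. In CPM the C2 segment summed to 436 and 447 in silique, 469 and 459.9 in flower bud, and 514 and 541 in seedling, so that seedling was then highest. The A2 segment summed to 6375 and 6363 CPM in silique, 5507 and 5298 CPM in flower bud, and 6179 and 6804 CPM in seedling. On the CPM scale the silique values of the A2 segment thus lay between both seedling values. Without seedling replicate 2 the share of the C2 segment was lower in silique than in seedling, with a difference of -0.00167 percentage points, against 0.000713 with all libraries.

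**Figure D3:**
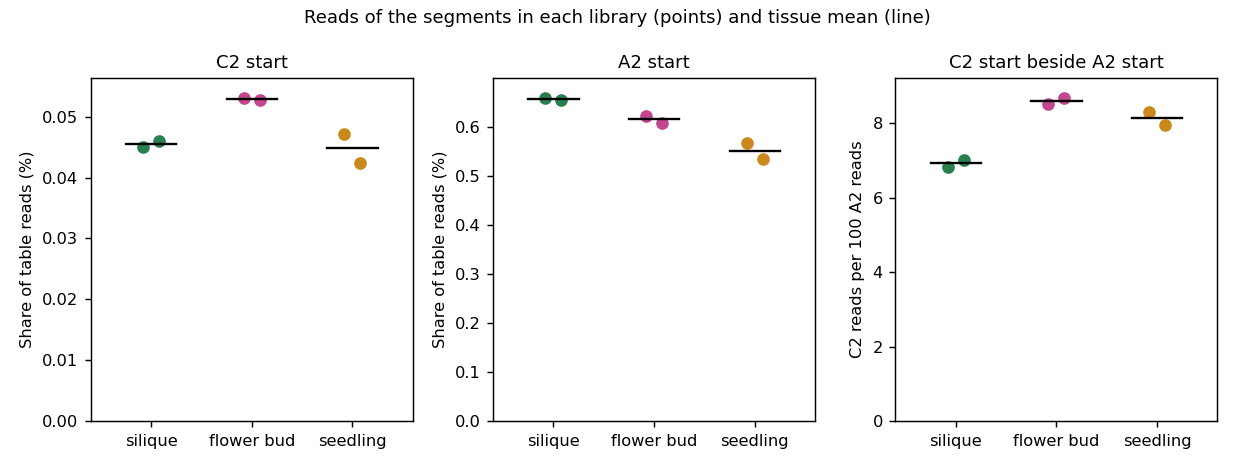
Share of the reads of the count table taken by the C2 segment (left) and the A2 segment (middle), in percent, and reads of the C2 segment per 100 reads of the A2 segment (right), for each library (points) with the tissue mean (line). The ratio lies at 6.83 and 7.02 in silique, below the values of 7.95 to 8.68 in flower bud and seedling.

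Genes that were read on C2 were less often read in all tissues than those on A2. A gene was counted as read in a tissue at 1 CPM or more in both of its libraries. By this measure 66 genes of the C2 segment and 192 of the A2 segment were read in at least 1 tissue. All 3 tissues were reached by 28 of the 66 genes (42.4%) on C2 and by 148 of the 192 (77.1%) on A2. On the rest of each chromosome this share was 66.9% of 2696 genes on C2 and 70.1% of 2226 genes on A2. In the C2 segment, 45 genes (14.2%) were read in silique, 56 (17.7%) in flower bud and 42 (13.3%) in seedling. In the A2 segment the numbers were 167, 164 and 171. On the rest of C2 the shares were 33.3%, 34.7% and 34.9%, and on the rest of A2 44.6%, 44.5% and 43.5%. A single tissue was reached on C2 by 11 genes in flower bud (3.48%), 2 in silique (0.633%) and 4 in seedling (1.27%). On A2 these were 10 genes in flower bud, 6 in silique and 14 in seedling. On the rest of C2 these shares were 2.82%, 1.89% and 3.25%, and on the rest of A2 3.67%, 3.08% and 3.01%. Levels close to 1 CPM are common on C2, so that more genes can miss the threshold in some tissue. In the shallow seedling replicate 2, 1 CPM equals 1.99 reads. There 60 of the 61 C2 genes with any read passed the threshold, against 46 of 99 in seedling replicate 1. The C2 numbers for seedling, for single tissues and for all 3 tissues thus depend on whether thin genes had a read in that library. At 0.5 CPM, an alternative chosen after the data were examined, 40 of 78 genes on C2 and 150 of 199 on A2 were read in all 3 tissues.

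The 12 genes of the C2 segment with the most reads lay between positions 113835 and 1998217. ZS11C02G002280 (chromosome C2, 1745729 to 1751665, minus strand) was the most read, with 80.4 and 75.7 CPM in silique, 47.5 and 40.4 CPM in flower bud, and 92.6 and 107 CPM in seedling. It alone gave 14.9% of the reads of the segment, and its tissues did not overlap, with flower bud lowest. ZS11C02G002710 (1989375 to 1998217, minus strand) had 61.7 and 54.3 CPM in silique, 59.5 and 60.7 CPM in flower bud, and 52.7 and 47.2 CPM in seedling. Silique and flower bud overlapped in this gene, and it was called in no pair of tissues by the test described below. These were the only 2 genes of the segment with a mean level over 50 CPM.

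Close together near the start of the chromosome lay 6 of the 12 genes, between 113835 and 281643. ZS11C02G000290 (245987 to 254574, minus strand) had 22.7 and 28.1 CPM in silique, 20.9 and 19.7 CPM in flower bud, and 53.5 and 25.1 CPM in seedling, where the replicates lay far apart. ZS11C02G000280 (205624 to 211688, minus strand) had 27.6 and 42.7 CPM in silique, 13.7 and 16.8 CPM in flower bud, and 22.8 and 14.6 CPM in seedling. Its silique libraries lay above all others, but its level is uncertain because another gene model overlaps it. The remaining genes of this group were lowest in silique or high in seedling alone. ZS11C02G000360 (278439 to 281643, plus strand) had 2.39 and 3.19 CPM in silique, 16.1 and 19.2 CPM in flower bud, and 29.4 and 32.1 CPM in seedling. ZS11C02G000320 (265325 to 266483, minus strand) had 1.91 and 1.02 CPM in silique, 18.0 and 13.8 CPM in flower bud, and 18.8 and 27.1 CPM in seedling. ZS11C02G000110 (113835 to 116073, minus strand) had 0.239 and 0.870 CPM in silique, 7.19 and 6.91 CPM in flower bud, and 20.3 and 20.1 CPM in seedling. In these 3 genes silique did not overlap the other tissues and stood lowest. ZS11C02G000160 (171217 to 172994, minus strand) had 2.27 and 3.05 CPM in silique, 1.96 and 0.864 CPM in flower bud, and 25.0 and 21.6 CPM in seedling, which stood apart.

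Of the other 4 genes, 3 stood lowest in seedling. ZS11C02G001630 (1305850 to 1306608, minus strand) had 25.1 and 26.4 CPM in silique, 27.4 and 25.9 CPM in flower bud, and 7.18 and 10.04 CPM in seedling. With a span of 759 bases it had the highest level per kb of the 12, 26.8 CPM per kb. ZS11C02G002140 (1649505 to 1651030, plus strand) had 17.2 and 17.4 CPM in silique, 15.03 and 14.9 CPM in flower bud, and 4.93 and 6.02 CPM in seedling. ZS11C02G001000 (824441 to 827245, minus strand), which overlaps 1 other gene model, had 17.7 and 19.1 CPM in silique, 11.8 and 10.6 CPM in flower bud, and 3.8 and 2.01 CPM in seedling. The last value rests on 4 reads. ZS11C02G000500 (409587 to 410844, plus strand) had 14.8 and 17.4 CPM in silique, 11.8 and 17.9 CPM in flower bud, and 13.7 and 10.04 CPM in seedling, where flower bud overlapped both other tissues and silique lay above seedling. Of the 12 genes, 10 were called in at least 1 pair of tissues, beside 63.1% of the 65 genes tested in the segment and 56.5% of all genes tested. The 12 were picked by read number, so these shares are not like for like.

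**Figure D4:**
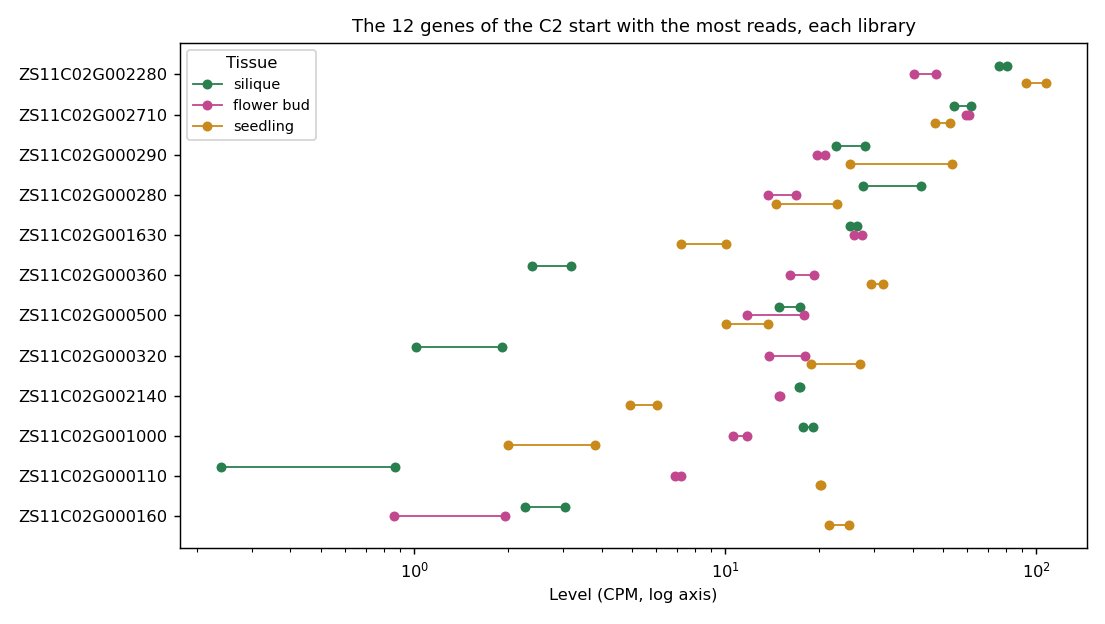
Level (CPM, log axis) of the 12 genes of the C2 segment with the most reads, in order of their total reads, with both libraries of a tissue as joined points in the order silique, flower bud and seedling from top to bottom. The seedling points of ZS11C02G000160 at 25.0 and 21.6 CPM stand apart from the other tissues, and those of ZS11C02G000360, ZS11C02G000320 and ZS11C02G000110 in silique lie lowest.

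The 8 genes named on A2 were picked by CPM per kb, while the 12 on C2 were picked by total reads. Their ranges per kb are thus not like for like. Over all genes with at least 60 reads, the medians were 4.87 CPM per kb on A2 and 1.48 on C2. The 8 genes with the highest CPM per kb, among those that overlap no other gene model, ranged from 63.7 to 148 CPM per kb, while the 12 genes above ranged from 3.30 to 26.8 CPM per kb. ZS11A02G001480 (chromosome A2, 859013 to 863498, minus strand) led with 882 and 909 CPM in silique, 564 and 507 CPM in flower bud, and 640.1 and 486 CPM in seedling. It gave 11.3% of the reads of the segment, and silique stood above both other tissues, which overlapped. ZS11A02G002930 (1509175 to 1510758, plus strand) had 224 and 218 CPM in silique, 219 and 193 CPM in flower bud, and 151 and 92.4 CPM in seedling, which stood lowest. ZS11A02G002550 (1348583 to 1349685, minus strand) had 90.5 and 94.9 CPM in silique, 246 and 235 CPM in flower bud, and 4.93 and 17.1 CPM in seedling. Its tissues stood well apart from each other.

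Near neighbours ZS11A02G001960 (1085229 to 1086385, plus strand) and ZS11A02G001980 (1089810 to 1091616, minus strand) were both highest in seedling. ZS11A02G001960 had 47.1 and 40.3 CPM in silique, 35.2 and 32.6 CPM in flower bud, and 217 and 346 CPM in seedling. ZS11A02G001980 had 127 and 145 CPM in silique, 62.95 and 67.0 CPM in flower bud, and 217 and 384 CPM in seedling. The last gene of the segment, ZS11A02G003160 (1634811 to 1639606, minus strand), had 640.5 and 640.4 CPM in silique, 96.1 and 87.9 CPM in flower bud, and 366 and 838 CPM in seedling. Flower bud stood lowest there, and the silique values lay between both seedling replicates. ZS11A02G002900 (1503547 to 1504944, minus strand) had 56.7 and 51.1 CPM in silique, 124 and 114 CPM in flower bud, and 171 and 166 CPM in seedling. ZS11A02G000480 (209983 to 211285, plus strand) had 75.9 and 72.8 CPM in silique, 75.8 and 61.8 CPM in flower bud, and 103 and 109 CPM in seedling, where it stood highest. Of the 8 genes, 5 were called in at least 1 pair of tissues, beside 54.2% of the 190 genes tested in the segment and 56.5% of all genes tested. The 8 were picked by level, so these shares are not like for like either.

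Differences between tissues were not used to choose the segments. They were tested with edgeR's quasi-likelihood test over all genes of the count table that passed a filter on low counts. Calls needed a change of at least 2-fold and an adjusted p (Benjamini-Hochberg) under 0.05. The filter on low counts passed 65 of the 316 genes of the C2 segment and 190 of those of the A2 segment. On C2, genes that passed had a median level of 3.24 CPM, against 13.7 CPM on A2, and a thinly read gene passes more easily when it is high in 1 tissue. Shares of called genes on C2 are therefore given beside those of all genes as a description, and their difference was not tested. The comparisons share libraries, so their counts are not independent of each other.

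Between flower bud and seedling, 35 genes of the C2 segment were called (53.8% of the 65 tested), and 78 genes of the A2 segment (41.1% of 190), against 43.0% of all genes tested. Higher in flower bud were 21 genes on C2 (32.3%) and 33 on A2 (17.4%), against 21.1% of all genes, and lower were 14 on C2 (21.5%) and 45 on A2 (23.7%), against 21.8%. The median log2 fold change of the tested genes was 0.53 on C2 and -0.11 on A2, beside 0.12 over all genes. Fewer genes were called higher, on C2 and over all genes, when 1 flower bud library was left out. A tissue then has 1 library, so counts of calls are not compared. Leaving out 1 library of any tissue gave a median log2 fold change between 0.274 and 0.701 on C2. It lay between -0.308 and -0.0243 on A2, beside 0 to 0.297 over all genes.

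Among the C2 genes that rose most in flower bud was ZS11C02G002220 (1682978 to 1686154, plus strand), with 5.31 ± 0.185 CPM in flower bud and 0.0704 ± 0.0996 CPM in seedling (SD, n = 2 each; edgeR log2 fold change 5.29 ± 0.91 SE, adjusted p = 0.000868). The seedling value rests on 2 reads of the deeper library. With the reads of both libraries pooled per tissue and divided by their pooled scaled depth, which weights the deep seedling library most, the ratio was 43.0 with an exact 95% counting interval of 11.6 to 360.2. ZS11C02G000720 (671715 to 681144, plus strand), which overlaps another gene model, had 7.16 ± 0.349 CPM in flower bud and 0.211 ± 0.299 CPM in seedling (log2 fold change 4.27 ± 0.65, edgeR adjusted p = 0.000588). Its seedling value rests on 6 reads of replicate 1, with 0 in replicate 2. Among falling genes, ZS11C02G000390 (344863 to 346638, minus strand) had 0.326 ± 0.155 CPM in flower bud, from 4 and 2 reads, and 9.23 ± 3.28 CPM in seedling (-4.67 ± 0.58, edgeR adjusted p = 0.000118). ZS11C02G000160 had 1.41 ± 0.775 CPM in flower bud and 23.3 ± 2.42 CPM in seedling (-4.05 ± 0.37, edgeR adjusted p = 1.77e-05).

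On A2, both genes that rose most were read in flower bud alone. ZS11A02G002060 (1139248 to 1140403, minus strand) had 134 and 137 CPM in flower bud, while silique and seedling libraries had 0 reads. Flower bud was at least 732-fold higher than seedling (adjusted p = 5.28e-07 by edgeR). ZS11A02G001930 (1076573 to 1078732, plus strand) had 26.4 and 29.6 CPM in flower bud and 0 reads elsewhere, which is at least 151-fold higher than seedling (adjusted p = 8.5e-06 by edgeR). These bounds set 3 single reads against both seedling libraries together, and counting in pairs would lower them as stated above. ZS11A02G000460 (201905 to 209403, plus strand), which overlaps 1 other gene model, fell to 0.109 ± 0.154 CPM in flower bud, from 2 reads, against 29.1 ± 6.35 CPM in seedling (edgeR adjusted p = 6.69e-06). Pooled in the same way, the seedling reads were 237 times those of flower bud per depth, with an exact counting interval of 65.3 to 1968. On the plus strand from 665109 to 665732, ZS11A02G001020 had 0.109 ± 0.154 CPM in flower bud, also from 2 reads, and 21.0 ± 10.1 CPM in seedling (edgeR adjusted p = 4.66e-05), and a ratio of pooled reads per depth of 144 with an interval of 39.3 to 1192.

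Between silique and seedling, 19 genes of the C2 segment (29.2% of those tested) and 67 of the A2 segment (35.3%) were called, against 34.2% of all genes. Higher in silique were 8 genes on C2 (12.3%) and 32 on A2 (16.8%), against 16.2% of all genes, and lower were 11 on C2 (16.9%) and 35 on A2 (18.4%), against 18.0%. On both segments these shares lay near the background. Fewer genes were called, on both segments and over all genes, when 1 silique library was left out. A tissue then has 1 library, so counts of calls are not compared. Leaving out 1 library of any tissue gave a median log2 fold change between -0.0374 and 0.158 on C2. It lay between -0.0265 and 0.0194 on A2, beside 0 to 0.196 over all genes. DESeq2 gave 5 higher genes on C2 and 4859 over all genes, against 8 and 5573 by edgeR.

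ZS11C02G001000 had 18.4 ± 1.02 CPM in silique and 2.91 ± 1.27 CPM in seedling (SD, n = 2 each; edgeR log2 fold change 2.42 ± 0.29 SE, adjusted p = 0.000134). ZS11C02G002140 had 17.3 ± 0.127 CPM in silique and 5.48 ± 0.774 CPM in seedling (1.74 ± 0.24, edgeR adjusted p = 0.000339). Both rose in silique, with no overlap between the libraries. The 2 genes with the largest falls lie near the chromosome start. ZS11C02G000110 had 0.555 ± 0.446 CPM in silique, from 2 and 6 reads, and 20.2 ± 0.143 CPM in seedling (-5.22 ± 0.43, edgeR adjusted p = 1.25e-05). ZS11C02G000320 had 1.46 ± 0.636 CPM in silique and 23.0 ± 5.87 CPM in seedling (-3.85 ± 0.37, edgeR adjusted p = 3.17e-05).

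On A2, ZS11A02G002550 had 92.7 ± 3.13 CPM in silique and 11.0 ± 8.58 CPM in seedling (edgeR log2 fold change 3.49 ± 0.42 SE, adjusted p = 0.000146). ZS11A02G000850 (546596 to 556483, plus strand) had 98.2 ± 6.32 CPM in silique and 11.9 ± 2.66 CPM in seedling (2.95 ± 0.19, edgeR adjusted p = 3.23e-06). In both genes each silique library thus lay above both seedling libraries. Among falling genes, ZS11A02G002510 (1334809 to 1339821, minus strand) had 6.13 ± 0.465 CPM in silique and 148 ± 44.2 CPM in seedling (-4.57 ± 0.25, edgeR adjusted p = 1.36e-06). ZS11A02G001020 had 0.120 ± 0.169 CPM in silique, from 2 reads, and 21.0 ± 10.1 CPM in seedling (edgeR adjusted p = 9.17e-05), and a ratio of pooled reads per depth of 119 with an exact counting interval of 32.5 to 985.

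Between silique and flower bud, with all 6 libraries, called genes were more often lower in silique on C2 and more often higher on A2. On C2, 6 genes were higher and 14 lower in silique (9.23% and 21.5% of those tested), and on A2, 33 were higher and 19 lower (17.4% and 10%), against 14.5% higher and 13.0% lower over all genes. Together 20 genes on C2 (30.8%) and 52 on A2 (27.4%) were called, against 27.5% of all genes. The median log2 fold change of the tested genes was -0.38 on C2 and 0.08 on A2, beside -0.01 over all genes. The difference in balance between the segments was not tested. Called genes with 0 reads in silique numbered 4 on C2 and 5 on A2, and those with 0 reads in flower bud 0 and 7. Genes without silique reads passed the filter only through the other tissues. The C2 balance and median thus describe a thinly read, filtered set, with a median level of 3.24 CPM. The excess of lower genes on C2 was smaller when 1 silique or flower bud library was left out, and calls over all genes also fell. A tissue then has 1 library, so counts of calls are not compared. Leaving out 1 library of any tissue gave a median log2 fold change between -0.460 and -0.242 on C2. It lay between 0.0835 and 0.208 on A2, beside -0.0210 to 0.0835 over all genes.

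ZS11C02G002330 (1762971 to 1765160, minus strand) had 5.80 ± 0.417 CPM in silique and 0.325 ± 0.151 CPM in flower bud (SD, n = 2 each; edgeR log2 fold change 4.09 ± 0.78 SE, adjusted p = 0.00271). Its flower bud value rests on 2 and 4 reads. ZS11C02G003040 (2193219 to 2196063, plus strand), the last gene with a read before the edge, had 9.74 ± 0.582 CPM in silique and 1.84 ± 0.449 CPM in flower bud (2.39 ± 0.35, edgeR adjusted p = 0.000582). Both genes that fell most are those named above as risen in flower bud over seedling. ZS11C02G000720 had 0 reads in silique and 7.16 ± 0.349 CPM in flower bud, which is at least 36.4-fold lower (adjusted p = 0.000246 by edgeR). ZS11C02G002220 had 0.239 ± 0.338 CPM in silique and 5.31 ± 0.185 CPM in flower bud (-4.28 ± 0.77, edgeR adjusted p = 0.00187). Its silique value rests on 4 reads of replicate 1, with 0 in replicate 2. Over the alternatives run, its log2 fold change lay between -8.47 and -3.43.

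On A2, ZS11A02G003160 had 640.4 ± 0.0711 CPM in silique and 92.0 ± 5.76 CPM in flower bud (edgeR log2 fold change 2.80 ± 0.35 SE, adjusted p = 0.000245). ZS11A02G001900 (1068778 to 1071960, plus strand) had 38.6 ± 1.17 CPM in silique and 6.61 ± 1.95 CPM in flower bud (2.54 ± 0.36, edgeR adjusted p = 0.000494). These 2 genes also had seedling replicates far apart, at 366 and 838 CPM and at 22.3 and 51.2 CPM, with the shallow replicate 2 higher in both. The flower bud genes ZS11A02G002060 and ZS11A02G001930 had 0 reads in silique, which makes them at least 689-fold (adjusted p = 7.44e-07 by edgeR) and at least 142-fold (adjusted p = 1.26e-05) lower there.

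**Figure D5:**
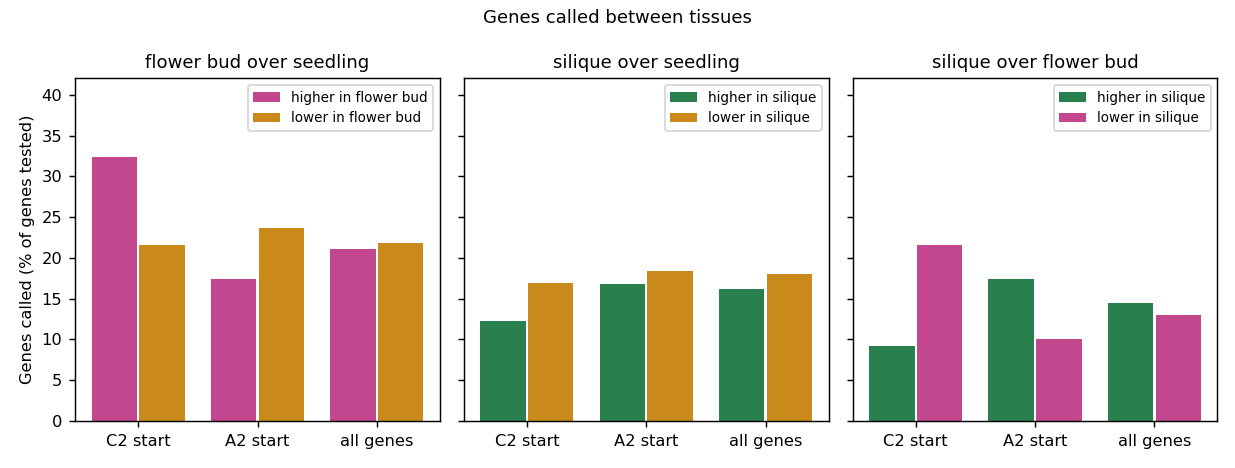
Share of tested genes called between tissues (edgeR adjusted p under 0.05 and at least 2-fold), in percent, for the 65 tested genes of the C2 segment, the 190 of the A2 segment and all genes tested, with higher and lower genes as paired bars for each pair of tissues. In silique over flower bud, 9.23% higher and 21.5% lower on C2 stand beside 17.4% and 10% on A2.

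Over the 3 pairs, 24 of the 65 tested genes of the C2 segment (36.9%) and 87 of the 190 of the A2 segment (45.8%) were called in none, against 43.5% of all genes tested. Genes called higher in a tissue than in both others numbered 0 in silique, 9 in flower bud (13.8%) and 7 in seedling (10.8%) on C2, and 7 (3.68%), 13 (6.84%) and 29 (15.3%) on A2. Over all genes tested the shares were 5.60% in silique, 8.34% in flower bud and 13.4% in seedling.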

How the data were processed

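The deposited count table gives, per the file headers, raw read counts of each gene in the column layout of featureCounts. Per the submitters' processing notes, the tools included GATK, HISAT2, SAMtools, edgeR and featureCounts. Versions, roles, settings and genome build are not given there. The other deposited table, named for TMM scaling by the authors, holds a normalized signal. Its values were whole multiples of 1 step per library (100% within 0.05 reads), and the recovered reads equalled the counts in 100% of 51324 shared genes.

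The segments were taken by identifier and position. The members and all lists were chosen with earlier results of these data known. Of the 65535 listed genes, the 34296 that passed the filter on low counts were tested with edgeR 4.0.16 in R 4.3.3. The settings were TMM factors, filterByExpr with minimum count 10, glmQLFit and glmQLFTest, with 6 libraries in 1 fit and 3 residual degrees of freedom. Benjamini-Hochberg adjustment ran over the 34296 genes. Standard errors are the absolute log2 fold change divided by the square root of F. DESeq2 1.42.0, other factors, filters and left-out libraries were alternatives, as were recovered reads of all chromosomes. Python 3.11.15 and SciPy 1.17.1 gave Wilson intervals, exact counting intervals and exact permutation tests. Intervals and limits cover counting error only, on single reads; since counts were mostly even, they are too narrow if each pair was counted as 2 reads.

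Genes named are, on C2, the 12 with the most reads and those beside the edge, on A2, the 8 with the highest CPM per kb, and, per segment and pair, the 2 largest rises and 2 largest falls among called genes of at least 5 CPM (C2) or 20 CPM (A2) in the higher tissue with no overlap between libraries. Same-numbered replicates did not deviate together (Pearson r across genes of -0.03 between silique and flower bud, 0.0038 between silique and seedling and -0.02 between flower bud and seedling), so the replicate number was not used as a block.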

Additional observations from a re-analysis of the deposited data

How the results depend on the processing

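Depth limits what can be said of the C2 segment, since most of its genes had few or no reads and seedling replicate 2 was shallow. The C2 segment had 56 genes with at least 60 reads, 100 with at least 10 reads and 155 with at least 1 read. The mean share of reads over tissues, 0.0478% on C2 and 0.608% on A2, was 0.0409% and 0.496% without overlapping genes, 0.0406% and 0.541% without the most-read gene, and 0.0307% and 0.391% with recovered reads of all chromosomes, whose total is larger. The C2 reads per 100 A2 reads, 7.89 in the mean, were 8.31 without overlapping genes and 7.5 without the most-read gene. Other totals or scaling cannot change a ratio within a library, and leaving out a library of the tissue outside a pair cannot change that pair. Tissue differences of this ratio were not computed without overlapping genes. In the settings that could change them, no direction turned, although sizes moved. Without the most-read gene, flower bud minus seedling was 1.41 against 0.466 and silique minus seedling -0.601 against -1.21. Without seedling replicate 2, flower bud minus seedling was 0.285. With TMM-scaled CPM, chosen after the data were examined, differences of shares from seedling turned: to -0.00630 (flower bud) and -0.00864 (silique) percentage points on C2, and to -0.109 and -0.0123 on A2. Leaving out 1 library moved the C2 share of silique minus seedling between -0.00167 and 0.00309. Leaving out 1 library gave 13 to 23 higher C2 genes in flower bud over seedling, 5 to 11 higher and 7 to 14 lower in silique over seedling, and 3 to 8 higher and 7 to 21 lower in silique over flower bud. On A2 it gave 22 to 32 lower genes in silique over seedling and 11 to 19 lower in silique over flower bud. Each such fit leaves a tissue with 1 library, so these counts are not compared. Calls over all genes also fell in a pair when a silique or flower bud library of that pair was left out. DESeq2 gave 5 higher C2 genes in silique over seedling, against 8 by edgeR, and 4859 over all genes, against 5573. The cause of these changes was not tested. With the replicate block, C2 had 17 higher and 11 lower genes in flower bud over seedling, against 21 and 14 without it. Over all genes there were then 6953 higher and 7135 lower, against 7250 and 7484. With this block no count of calls moved by over 1.5 times. All 24 changes of named genes kept direction in the alternatives run. They were picked from these same data as the largest called changes without overlap between libraries, so this was likely in advance and is no independent support.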
